A study of Arabidopsis thaliana with 12 samples.

Results

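In seedlings of the Arabidopsis thaliana mutant xrn3-8, 362 nuclear genes carried at least 4 times as much small RNA as in wild-type Col-0. They were found among 37184 annotated genes, of which 36898 lie in the nucleus and are not XRN3 itself. A gene was taken when its small RNA counts summed to at least 50 over 6 libraries, when the mean of the 3 xrn3-8 values was at least 4 times the mean of the 3 Col-0 values, and when the lowest xrn3-8 value lay above the highest Col-0 value. XRN3 and 3 U1 genes were left out. The genes were thus chosen by these small RNA values, which are described here with no test. The RNA-seq libraries took no part in the choice, and the tests below are on them.

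Small RNA came from 3 Col-0 and 3 xrn3-8 libraries of 14-day-old seedlings on MS plates. RNA-seq came from 3 Col-0 and 3 xrn3-8 libraries of 21-day-old seedlings on soil, made as rRNA-depleted, strand-specific total RNA libraries. Col-0 is the wild type, and xrn3-8 is an allele of XRN3 (AT1G75660) whose lesion the labels do not describe. Age and medium differ between the assays, so no small RNA library has an RNA-seq partner.

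XRN3 is a nuclear exoribonuclease that degrades uncapped RNA from its 5′ end, including the RNA still being made after a transcript has been cut at its poly(A) site. In plants, RNA that lacks a cap or a proper end can be copied into double-stranded RNA by RNA-dependent RNA polymerases and cut by Dicer-like enzymes into small interfering RNAs, which Argonaute proteins carry to matching transcripts. Exoribonucleases and this silencing pathway can act on the same RNAs. Read length, sequence and strand were not analysed here, so small interfering RNAs and other short fragments cannot be told apart.

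Col-0 held 3140, 3242 and 2878 RNA-seq counts of XRN3, and xrn3-8 held 1398, 1669 and 1505. Small RNA counts over nuclear genes other than XRN3 lay between 5715837 and 6652614 per library, and RNA-seq gene counts lay between 61604670 and 79845518. Small RNA library xrn3-8 replicate 3 stood apart from the other 5. Its rRNA genes held 6.97% of these counts against 24.3% to 30.7% elsewhere, its tRNA genes 4.59% against 11.5% to 14.5%, and its lncRNA genes 28.6% against 14.3% to 16.7%. It was the highest library for 280 of the 362 genes. With that library left out of the fold and the overlap, 318 genes met the rule, 314 of them among the 362. With it left out of the count minimum as well, 198 did, 197 of them among the 362.

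The 362 genes were 3.81% of the 9502 nuclear genes with at least 50 summed counts. In the opposite direction, 21 genes were at least 4-fold lower without overlap. The median ratio over all 9502 genes was 1.03. Over the 362 it was 7.24, with 85 genes under 5, 118 at 10 or more and 18 at 50 or more. Summed counts ran from 50 to 12250 with a median of 95.5, so 191 genes rested on fewer than 100 counts and 24 on 1000 or more. Together the 362 genes held 665, 600.4 and 537 CPM (counts per 1e+06 nuclear gene counts without XRN3) in Col-0. They held 5898, 6278 and 8768 CPM in xrn3-8. As a share of small RNA this was 0.0601% ± 0.0064 in Col-0 against 0.698% ± 0.156 in xrn3-8 (SD, n = 3).

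A few loci held much of that small RNA. The 4 genes with the highest xrn3-8 level are 2 adjacent pairs, AT3G23680 with AT3G23685 and AT2G45930 with AT2G45940, and they made up 33.1% of the xrn3-8 total of all 362. The reference gives none of them a name. AT3G23685 had 10.4, 5.65 and 6.91 CPM in Col-0 and 584, 611 and 758 CPM in xrn3-8, a ratio of 85.1. AT3G23680 had 2.89, 2.29 and 2.25 CPM in Col-0 and 481, 527 and 679 CPM in xrn3-8, a ratio of 227. Within each pair every xrn3-8 library was far above every Col-0 library, and xrn3-8 replicate 3 was the highest. AT2G45940 had 8.51, 5.96 and 7.06 CPM in Col-0 and 460.4, 457 and 770.2 CPM in xrn3-8. Its neighbour AT2G45930 had 7.15, 5.65 and 6.16 CPM in Col-0 and 439.9, 437 and 735 CPM in xrn3-8, so the counts of the pair lay within 10% of each other in each xrn3-8 library. Whether such neighbours hold separate reads was not tested.

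**Figure D1:**
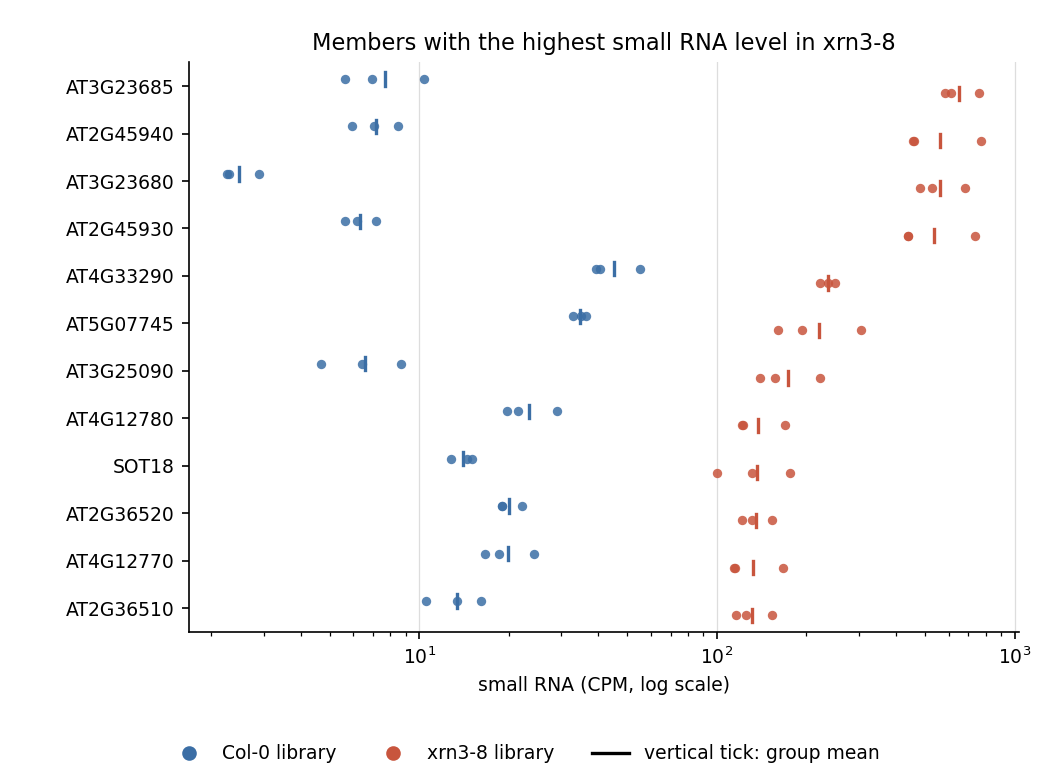
Small RNA level in CPM (log scale) of the 12 genes with the highest xrn3-8 mean, each point 1 library and each tick a group mean of 3 libraries. The top 4 genes lie between 437 and 770.2 CPM in xrn3-8 and below 11 CPM in Col-0, and no gene shows overlap between the groups, as the rule requires.

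None of these 4 genes showed much RNA-seq signal. AT3G23685 had 0 RNA-seq counts in all 6 libraries, and AT2G45930, the single gene of the 4 that could be tested, had 0.380 ± 0.042 CPM in Col-0 against 0.268 ± 0.073 CPM in xrn3-8 (SD, n = 3; edgeR adjusted p = 0.37). The next genes by level were AT4G33290 with a mean of 236 CPM in xrn3-8, the lncRNA gene AT5G07745 with 219.6 CPM and AT3G25090 with 173 CPM. They were followed by AT4G12780 with 138 CPM, SOT18 with 136 CPM, a tRNA-Leu gene (AT2G36520) with 135 CPM, AT4G12770 with 132 CPM and a second tRNA-Leu gene (AT2G36510) with 131 CPM. The top 12 genes together held 51.8% and the top 20 held 63.7% of the small RNA of the 362.

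The largest ratio was at the transcribed pseudogene AT1G65940, which had 2 summed counts in Col-0 and 1633 in xrn3-8. Its ratio of summed counts was 838, with an exact 95% interval of 232 to 6922 that covers counting error only. DOF4.4, a DOF-type transcription factor gene, had 1 count in Col-0 and 178 in xrn3-8, a ratio of 183 (95% interval 32.4 to 7252). AT1G60690 had 1 count and 110, a ratio of 113 (19.8 to 4497). AT1G65940 and DOF4.4 had 0 RNA-seq counts in every library, while AT1G60690 had 2.98 ± 0.24 CPM in Col-0 against 3.17 ± 0.16 CPM in xrn3-8 (SD, n = 3; edgeR adjusted p = 0.67). For 6 of the 362 genes Col-0 held 0 small RNA counts, and AT4G16080 was at least 74.9-fold higher in xrn3-8 against a floor of 3 counts over the Col-0 group. The lncRNA gene AT1G04957 was at least 40.0-fold higher and the transposase-derived pseudogene CYTOSLEEPER at least 28.9-fold higher. LBD23 and LBD24, which encode LOB-domain transcription factors, were at least 19.5-fold and 18.2-fold higher. A further 29 genes held 1 to 3 Col-0 counts.

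Among genes better covered in Col-0, 2 with chloroplast or chaperone roles stood near the top. AT1G77930, which encodes the DnaJ protein DJC65, had 0.511, 0.305 and 0.902 CPM of small RNA in Col-0 and 27.8, 33.2 and 60.1 CPM in xrn3-8. Its RNA-seq level fell from 48.0 ± 3.2 to 35.6 ± 1.9 CPM (SD, n = 3; log2 fold change -0.43, SE 0.08, edgeR adjusted p = 0.0024). APG2, which encodes the TatC subunit of the thylakoid twin-arginine translocase, had 0.170, 0.153 and 0.752 CPM of small RNA in Col-0 and 15.6, 19.8 and 33.1 CPM in xrn3-8. Its RNA-seq level fell by 0.34 on the log2 scale (SE 0.09, edgeR adjusted p = 0.015), and on total counts it stood at -0.19 (edgeR adjusted p = 0.13). The APG2 call was also lost without Col-0 replicate 2 or xrn3-8 replicate 3 (edgeR adjusted p = 0.076 and 0.070). For both genes all small RNA values of xrn3-8 lay above those of Col-0, and xrn3-8 replicate 3 was the highest.

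Near the fold limit, AT5G54630 at 4.0, AT4G30790 (the autophagy scaffold ATG11) at 4.01 and AT5G06110 at 4.02 were just inside, while AT4G15545 at 3.99, AT3G24860 at 3.99 and AT3G62200 at 3.98 were just outside. At the count limit, LOV1, AT1G29760 and LZF1 with 50 counts were inside and AT1G17360, AT2G15910 and EDS1 with 49 were outside.

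Most of the genes code for proteins. Of the 362, 321 were protein-coding, 20 were tRNA genes, 9 pseudogenes, 5 transcribed pseudogenes, 6 lncRNA genes and 1 another non-coding RNA gene. Protein-coding genes made up 88.7% of the list and 80.3% of its xrn3-8 small RNA, and the list took 6.71% of the 4784 protein-coding genes with at least 50 counts. It took 5.57% of 359 tRNA genes and 0.251% of 3580 pseudogenes at the same count minimum. No rRNA or snoRNA gene was on it, of 3 and 62 with at least 50 counts. No snRNA gene was on it either, of 24 with at least 50 counts. That 24 was counted before the rule left out the 3 U1 genes by name, so their absence was fixed in advance. All snRNA genes together held 0.0349% to 0.0415% of the small RNA counts in Col-0 and 0.0923% to 0.132% in xrn3-8. The 362 genes lay on all 5 chromosomes, with 86, 49, 84, 58 and 85 on chromosomes 1 to 5. That is 2.62% to 4.33% of the genes with enough counts on each.

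The 20 tRNA genes came from 4 of the amino-acid families. They were 11 of 26 counted tRNA-Asp genes, 5 of 40 tRNA-Leu genes, 3 of 30 tRNA-Val genes and 1 of 33 tRNA-Ala genes. The 5 tRNA-Leu genes had means from 13.4 to 20.01 CPM in Col-0 against 126 to 135 CPM in xrn3-8. In xrn3-8 replicate 3 they lay between 145 and 153 CPM, and in Col-0 replicate 3 between 10.5 and 18.9 CPM. Whether they share reads was not tested. The tRNA-Asp genes AT3G52765 and AT5G40545 had the same counts in all 6 libraries (0, 7 and 1 in Col-0, 53, 24 and 40 in xrn3-8), and so did AT1G73900 and AT2G33660 (2, 8 and 4, then 55, 24 and 41). The sources used here do not say how reads with several positions were counted. Over all 26 tRNA-Asp genes the direction was the opposite, with 2917 CPM in Col-0 against 1505 CPM in xrn3-8, where xrn3-8 replicate 3 was lowest at 367 CPM. The 11 genes on the list together had 56.7 to 85.1 CPM in the xrn3-8 libraries and 4.77 to 16.0 CPM in the Col-0 libraries.

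Many genes of the list lay next to another gene of the list. Of the 362, 95 (26.2%) had another gene of the list directly before or after them in gene order. The share with such a neighbour was 2.89% over the 9502 nuclear genes with at least 50 counts and 1.94% over all nuclear genes. The 95 genes formed 46 pairs and 1 run of 3, which joined AT3G08943, AT3G08947 and HCC1, a cytochrome c oxidase assembly gene. AT3G08943 had 1.70, 1.68 and 1.35 CPM in Col-0 and 95.4, 70.7 and 100.4 CPM in xrn3-8, and AT3G08947 had 2.04, 1.83 and 1.65 CPM and 92.2, 67.9 and 94.6 CPM. HCC1, at the end of the run, had 3.04, 3.50 and 3.50 CPM in xrn3-8. In 3 of the pairs the counts of the neighbours lay within 10% of each other in every xrn3-8 library, and in 7 pairs within 20%. In the other pairs the levels differed by more. CAND1, which regulates cullin-type ubiquitin ligases, had 18.9 CPM in xrn3-8 against 2.38 CPM at its neighbour AT2G02570. No strand was used, so reads from overlapping neighbours cannot be told apart. Some neighbours, such as UGT71C4 with UGT71C3, belong to the same gene family. How reads with several positions were counted is not stated, and whether neighbouring copies share reads was not tested. The 26.2% is thus a share of genes and not of separate gains.

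**Figure D2:**
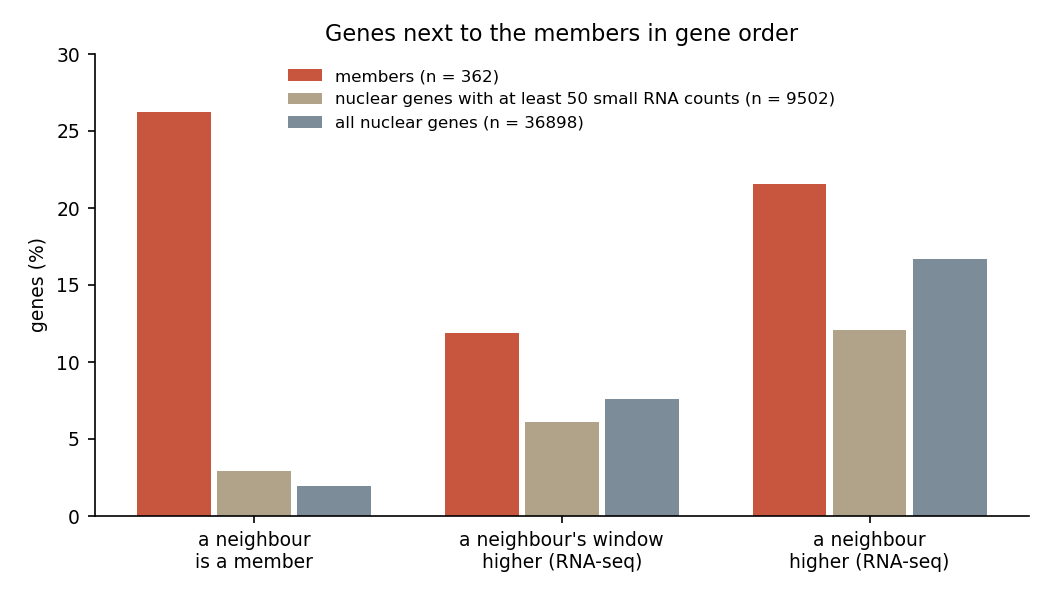
Percent of genes in 3 sets whose direct neighbour in gene order is on the list, has a flanking window called higher in xrn3-8 RNA-seq, or is itself called higher. Bars stand for the 362 genes of the list, the 9502 nuclear genes with at least 50 small RNA counts and all 36898 nuclear genes, and 26.2% of the list had a neighbour on the list against 2.89% and 1.94%.

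In RNA-seq the list moved in both directions, at shares close to those of all genes. Of the 362 genes, 307 had enough RNA-seq counts to be tested, and 55 were higher and 62 lower in xrn3-8 (edgeR quasi-likelihood test, adjusted p under 0.05). That is 17.9% and 20.2% of the 307, where 16.0% and 17.3% of all 20653 genes tested were higher and lower. The median log2 fold change was 0.03 over the 307 and 0.01 over all genes tested. When libraries were scaled by their total counts instead of TMM, the all-gene median moved to 0.16, that of the list to 0.18, and 107 genes of the list were higher and 35 lower. Changes of up to about that shift therefore depend on the scaling, and where it ends or adds the call of a gene whose RNA-seq change is described below, the second value is given. Among the 318 genes found without small RNA library xrn3-8 replicate 3, 45 were higher and 52 lower of 267 tested.

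Markers of green tissue were lower in xrn3-8 RNA-seq for 3 of 4 genes, RBCS1A, LHCB2.1 and GAPA. RBCS1A fell by 0.39 (edgeR adjusted p = 0.028), but stood at -0.23 on total counts (edgeR adjusted p = 0.090) and lost its call when any single Col-0 library or xrn3-8 replicate 3 was left out (edgeR adjusted p = 0.062 to 0.12), which left 2 of 4. The fourth gene, PSBO1, was lower by DESeq2 (adjusted p = 0.043) and without xrn3-8 replicate 1 (edgeR adjusted p = 0.0081), which made 4 of 4. Summed over the 4, their level was 7838 to 8573 CPM in Col-0 and 5306 to 6476 CPM in xrn3-8. The 3 root markers CASP1, COBL9 and NIP3;1 summed to 0.0604 to 0.135 CPM in Col-0 and 0.187 to 0.446 CPM in xrn3-8. That was too little for a test in the main fit. By DESeq2 and without a count filter all 3 were tested, with 1 higher and 0 lower. Without Col-0 replicate 1 or xrn3-8 replicate 1, 1 was tested and was higher, and without Col-0 replicate 2 or 3, 1 was tested and not called. The 4 flower and seed markers summed to 0.357 to 2.38 CPM and 1.14 to 2.70 CPM. Without a count filter all 4 were tested, with 1 higher and 2 lower, and by DESeq2 1 was higher and 0 lower. In the main fit the floral genes PI and AP3 could be tested. PI rose from 0.160 ± 0.049 to 1.94 ± 0.78 CPM (SD, n = 3; edgeR adjusted p = 9.9e-05). AP3 stood at a log2 fold change of -1.77 (edgeR adjusted p = 0.16), and was lower without xrn3-8 replicate 1 (-3.99, edgeR adjusted p = 0.018), and the seed gene OLEO1 was at 0 in every xrn3-8 library. The part of these markers in the RNA-seq changes of the list was not tested. In such whole seedlings, fewer cells of a type and less RNA per cell cannot be told apart.

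A larger small RNA ratio did not go with more frequent RNA-seq calls. Of 90 tested genes with a ratio of 10 or more, 13 were higher and 15 lower, and of 217 with a smaller ratio, 42 were higher and 47 lower. Across the 307 genes Pearson's r between the log2 ratio and the RNA-seq log2 fold change was 0.06 and Spearman's rho was -0.01. These are across genes that share libraries and are given as a description. The tested genes had a median Col-0 level of 13.5 CPM, against 8.42 CPM over all genes tested. Of the 55 genes that were not tested, 34 had 0 RNA-seq counts in all 6 libraries and the highest had 73. They include all 20 tRNA genes and 24 protein-coding genes.

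**Figure D3:**
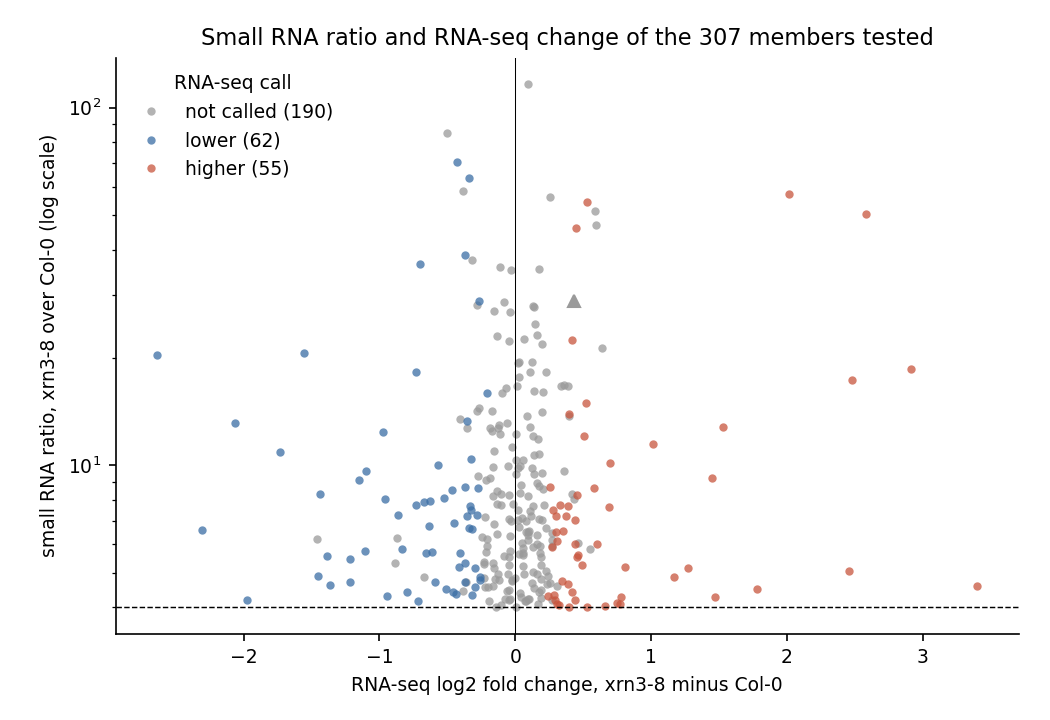
Small RNA ratio (log scale, vertical axis) against RNA-seq log2 fold change (horizontal axis) for the 307 genes tested by RNA-seq. Each point is 1 gene, coloured by its RNA-seq call (55 higher, 62 lower, 190 not called), the triangle marks a gene with 0 Col-0 small RNA counts plotted at its lower bound, and the dashed line is the 4-fold limit of the rule.

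The 3 desulfoglucosinolate sulfotransferase genes, SOT16, SOT17 and SOT18, were all on the list and all lower in RNA-seq. These enzymes carry out the last step in building the core of glucosinolates, the sulfur-rich defence compounds of the cabbage family. The groups of genes by role in this and the next paragraphs were put together after the values had been seen. Their counts stand beside 16.0% higher and 17.3% lower among all genes tested. SOT16 had 5.62, 6.42 and 3.16 CPM of small RNA in Col-0 and 72.5, 113 and 127 CPM in xrn3-8. Its RNA-seq level was 77.5, 83.8 and 93.9 CPM in Col-0 and 30.6, 27.4 and 28.8 CPM in xrn3-8, and it fell by 1.55 on the log2 scale (SE 0.09, edgeR adjusted p = 1.9e-06). Every xrn3-8 small RNA library was above those of Col-0, and every xrn3-8 RNA-seq library, from other plants, was below. SOT18, next to SOT16 in gene order, had 15, 12.8 and 14.4 CPM of small RNA in Col-0 and 100.4, 131 and 176 CPM in xrn3-8. In RNA-seq it fell from 45.9 ± 6.7 to 21.4 ± 2.3 CPM (SD, n = 3; log2 fold change -1.10, SE 0.12, edgeR adjusted p = 6.0e-05). SOT17 lies elsewhere in the genome and had less small RNA, 0.681, 0.458 and 0.301 CPM in Col-0 and 2.73, 3.85 and 5.4 CPM in xrn3-8. It fell in RNA-seq by 1.44 (SE 0.10, edgeR adjusted p = 4.5e-06). The groups did not overlap in RNA-seq for any of the 3.

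UDP-glycosyltransferases, which attach sugars to hormones and other small molecules, gave 5 genes. Of these, 3 were lower in RNA-seq, where 17.3% of all genes tested were. IAGLU, which glucosylates the auxin indole-3-acetic acid, had 2.72, 1.22 and 1.80 CPM of small RNA in Col-0 and 15.6, 18.0 and 28.9 CPM in xrn3-8. Its RNA-seq level was 18.2, 14.0 and 15.8 CPM in Col-0 and 5.26, 3.84 and 5.37 CPM in xrn3-8 (log2 fold change -1.73, SE 0.15, edgeR adjusted p = 1.6e-05). UGT73B3 fell by 1.36 (edgeR adjusted p = 0.00039). UGT71C4 and UGT71C3 are neighbours, with xrn3-8 small RNA means of 76.5 and 23.9 CPM. UGT71C4 fell by 0.41 (edgeR adjusted p = 0.043), a call that was lost on total counts (-0.26, edgeR adjusted p = 0.15) and in 4 of the 6 fits that left out a library (edgeR adjusted p = 0.10 to 0.16), while UGT71C3, at 0.27 (edgeR adjusted p = 0.48), and UGT71C2, at -0.02 (edgeR adjusted p = 0.96), did not pass the test.

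AAO1 (AT5G20960) and AAO2 (AT3G43600) encode aldehyde oxidases, enzymes that turn aldehydes into acids. AAO1 had 4.60, 4.43 and 3.61 CPM of small RNA in Col-0 and 37.5, 42.5 and 65.0 CPM in xrn3-8. Its RNA-seq level was 16.6, 12 and 12.9 CPM in Col-0 and 30.4, 23.1 and 30.6 CPM in xrn3-8, so in each assay every xrn3-8 library was above every Col-0 library. It rose by 1.02 (SE 0.14, edgeR adjusted p = 0.00037), the opposite direction to the sulfotransferases. AAO2 had 16.2 ± 7.2 CPM of small RNA in xrn3-8 against 1.70 ± 0.45 CPM in Col-0 (SD, n = 3), and its RNA-seq log2 fold change was 0.19 (edgeR adjusted p = 0.087), or 0.35 on total counts (edgeR adjusted p = 0.015).

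Clock and light-response genes gave 7 genes, 2 higher and 3 lower in RNA-seq, where 16.0% and 17.3% of all genes tested were. FKF1, a blue-light receptor F-box protein of the photoperiod pathway, showed the largest rise on the list. Its RNA-seq level was 2.30, 2.30 and 1.54 CPM in Col-0 and 23.8, 20.8 and 20.7 CPM in xrn3-8 (log2 fold change 3.40, SE 0.15, edgeR adjusted p = 4.0e-07). Its small RNA was low, 0.341, 0.611 and 0.752 CPM in Col-0 and 3.04, 1.92 and 2.86 CPM in xrn3-8. The clock repressor gene PRR5 rose from 17.5 ± 0.28 to 26.6 ± 4.8 CPM (SD, n = 3; edgeR adjusted p = 0.0032). LNK3 (AT3G12320), a clock-regulated gene, showed the largest fall on the list. Its RNA-seq level was 37.9, 32.5 and 39.3 CPM in Col-0 and 4.28, 5.49 and 7.76 CPM in xrn3-8 (log2 fold change -2.64, SE 0.18, edgeR adjusted p = 4.9e-06), and its small RNA was 0, 0.458 and 0 CPM against 1.67, 3.32 and 4.29 CPM. The B-box gene BBX28 fell by 1.97 (SE 0.13, edgeR adjusted p = 4.4e-06) and the phototropism regulator PKS4 by 1.22 (SE 0.19, edgeR adjusted p = 0.00070). LZF1 at 0.24 (edgeR adjusted p = 0.091) and EID1 at 0.20 (edgeR adjusted p = 0.14) did not pass the test, though both were higher on total counts (edgeR adjusted p = 0.0075 and 0.019).

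**Figure D4:**
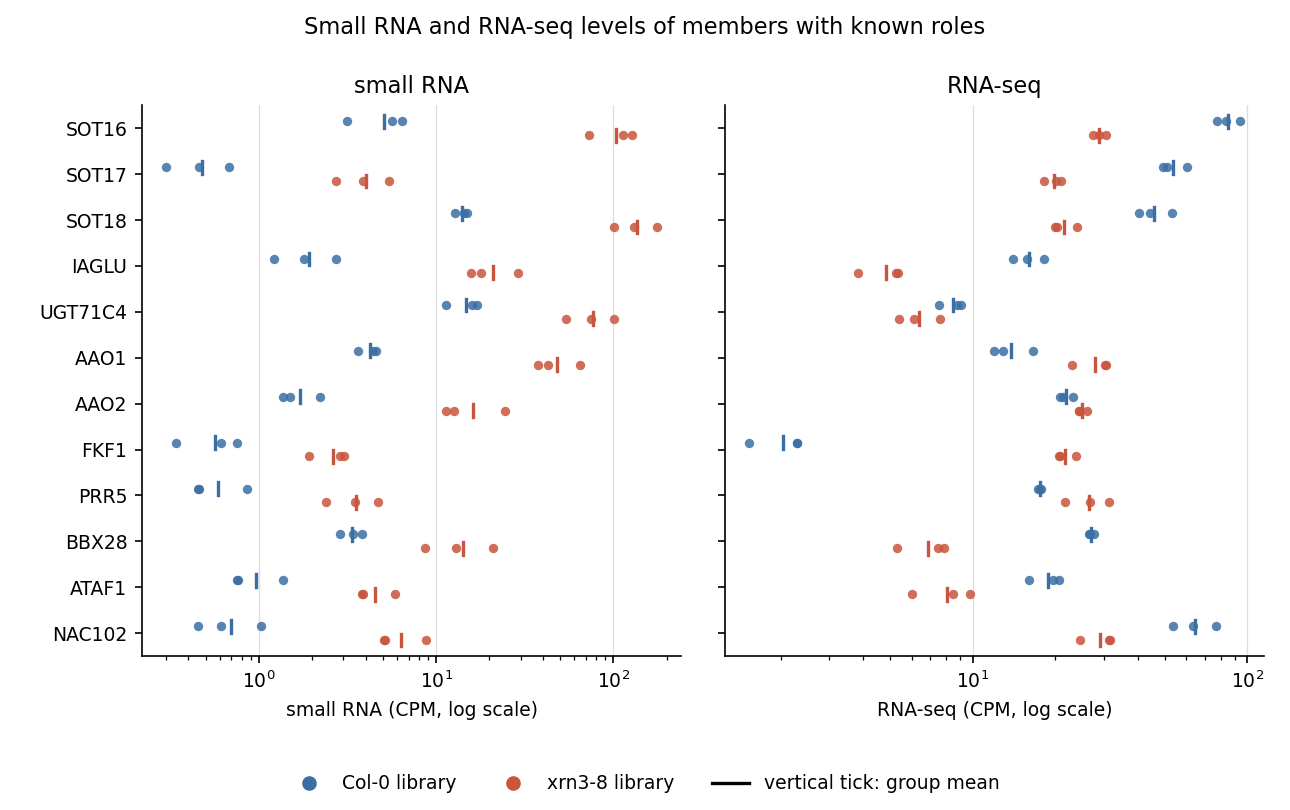
Small RNA (left) and RNA-seq (right) levels in CPM on log scales for 12 genes of the list, each point 1 library and each tick the mean of 3. Small RNA is higher in xrn3-8 for all 12 by the rule, while RNA-seq is lower for SOT16, SOT17, SOT18, IAGLU, UGT71C4, BBX28, ATAF1 and NAC102, higher for AAO1, FKF1 and PRR5, and not called for AAO2.

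Stress-related transcription and detoxification genes were among the others with lower RNA. The NAC factors ATAF1 and NAC102 fell by 1.22 (SE 0.16, edgeR adjusted p = 0.00029) and 1.15 (SE 0.14, edgeR adjusted p = 0.00015). LBD37, a LOB-domain repressor of nitrogen-responsive genes, had 3.66 ± 0.67 CPM of small RNA in Col-0 against 29.1 ± 2.6 CPM in xrn3-8 (SD, n = 3) and fell in RNA-seq by 0.63 (edgeR adjusted p = 0.0094). Of 3 LBD genes on the list, LBD37 alone could be tested in the main fit. By DESeq2 and without a count filter 2 of the 3 were tested, 1 higher and 1 lower. The cytochrome P450 gene CYP81D11 fell from 44.9 ± 9.8 to 9.09 ± 1.5 CPM (SD, n = 3; edgeR adjusted p = 6.2e-06). The glutathione transferase gene GSTU5 fell by 1.45 (edgeR adjusted p = 1.9e-05), the cis-prenyltransferase gene cPT4 by 2.06 (edgeR adjusted p = 4.0e-05) and AT5G13770 by 1.39 (edgeR adjusted p = 4.8e-06). Their small RNA means in xrn3-8 lay between 2.83 CPM for CYP81D11 and 29.1 CPM for LBD37.

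The genes with the largest rises after FKF1 were mostly expressed at a low level. CYP96A11, a cytochrome P450 gene, had 0.0621, 0 and 0.0338 CPM in Col-0 and 0.171, 0.285 and 0.292 CPM in xrn3-8 (log2 fold change 2.92, SE 0.75, edgeR adjusted p = 0.013). AT1G02020 rose from 0.421 ± 0.054 to 2.32 ± 0.20 CPM (SD, n = 3; edgeR adjusted p = 3.0e-05) and AT3G47660 from 0.169 ± 0.073 to 0.95 ± 0.46 CPM (SD, n = 3; edgeR adjusted p = 0.0033). TAF12, a subunit of the general transcription factor TFIID, rose from 1.03 ± 0.16 to 2.88 ± 0.90 CPM (SD, n = 3; edgeR adjusted p = 0.0014). AT3G19120 rose by 1.45, AT1G13350 by 1.27 and AT4G16857 by 1.17 on the log2 scale, with edgeR adjusted p-values of 0.00017, 3.9e-05 and 0.0051. AT5G32460 at 2.58, AT1G58215 at 2.02, AT5G39350 at 1.78 and AT1G60680 at 1.53 passed in the full data (edgeR adjusted p from 0.017 to 0.040), but each lost the call when a single library was left out. AT1G60680 was at 0.87 (edgeR adjusted p = 0.22) without xrn3-8 replicate 3, where it had 1.51 CPM against 0.746 and 0.359 CPM in the other xrn3-8 libraries.

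Genes that handle RNA were on the list too. DCP1, a subunit of the mRNA decapping complex, had 0.170, 0.153 and 0 CPM of small RNA in Col-0 and 2.89, 2.80 and 3.34 CPM in xrn3-8, and its RNA-seq log2 fold change was 0.13 (edgeR adjusted p = 0.33). MTR4, an RNA helicase that feeds the nuclear exosome, stood at 0.10 (edgeR adjusted p = 0.37), or 0.25 on total counts (edgeR adjusted p = 0.037). The double-stranded RNA-binding protein gene DRB2 rose by 0.37 (SE 0.09, edgeR adjusted p = 0.0082) and the small RNA degrading nuclease gene SDN2 by 0.31 (SE 0.09, edgeR adjusted p = 0.020). The SDN2 call was lost without Col-0 replicate 1 or 2 or xrn3-8 replicate 2 (edgeR adjusted p = 0.071, 0.065 and 0.051). DRB5 was at -0.37 (edgeR adjusted p = 0.14). SAP130a and SAP130b, copies of a subunit of the splicing factor SF3b, had almost the same small RNA level in each library, with xrn3-8 means of 59.4 CPM for each. Reads of such copies may not be separable, and in RNA-seq they stood at 0.34 and 0.39 (edgeR adjusted p = 0.067 and 0.089). Both passed on total counts (edgeR adjusted p = 0.012 and 0.024), and SAP130b also with the replicate block (0.37, edgeR adjusted p = 0.035) and without xrn3-8 replicate 2 (0.54, edgeR adjusted p = 0.018).

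Transcripts known as microRNA targets were represented by MYB33 and MYB65, TCP24 and the F-box gene LCR. Of these 4, TCP24 rose in RNA-seq by 0.39 (edgeR adjusted p = 0.0062), and MYB33 at 0.19, MYB65 at 0.06 and LCR at -0.04 did not pass (edgeR adjusted p = 0.17, 0.79 and 0.82). MYB33 was higher on total counts (0.34, edgeR adjusted p = 0.022). Their small RNA means in xrn3-8 were 3.06 CPM for MYB33, 5.02 CPM for MYB65, 4.86 CPM for TCP24 and 4.01 CPM for LCR. MYB33 and MYB65 each had a neighbour on the list, AT5G06110 and AT3G11450.

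Of 4 autophagy genes, ATG11 (AT4G30790) rose by 0.40 (edgeR adjusted p = 0.0050), while ATG13 at 0.17, ATG6 at 0.11 and APG5 at -0.20 did not pass. On total counts ATG13 and ATG6 were higher too (edgeR adjusted p = 0.013 and 0.041). Of 5 picked genes derived from transposases, MUG1, MUG7, MUG8, FRS3 and FRS7, 0 passed the test by edgeR and by DESeq2. Their log2 fold changes lay between -0.16 and 0.27. The 5 are not every such gene of the list, which also holds CYTOSLEEPER, so the 0 does not cover all of them. At an unadjusted p under 0.05, 1 of the 5 (MUG1) was higher by either tool. On total counts MUG1 was higher (0.43, edgeR adjusted p = 0.0058), as it was without xrn3-8 replicate 3 (edgeR adjusted p = 0.041), and MUG8 was lower without xrn3-8 replicate 1 (edgeR adjusted p = 0.049). MUG8 had the most small RNA of the 5, 0.511, 1.07 and 0.902 CPM in Col-0 and 15.9, 19.4 and 31.6 CPM in xrn3-8. It lies next to PAP26, an acid phosphatase gene, which had 17.8, 19.4 and 43.2 CPM in xrn3-8. The neighbours AT5G42350 (CFK1) and AT5G42360 (CFK2), F-box proteins that bind the COP9 signalosome, had 12.5 and 15 CPM in xrn3-8 against 0.543 and 0.649 CPM in Col-0, and neither passed in RNA-seq (edgeR adjusted p = 0.47 and 0.35). The role groups in the last paragraphs were put together after the values had been seen, so their counts are descriptions.

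Adjacent genes of the list were called in RNA-seq in the same direction, in opposite directions or not at all. Of the 46 pairs, 39 had both genes tested, and in 3 both were called in the same direction, in 3 they were called in opposite directions, in 17 only 1 was called and in 16 neither was. These counts stand beside 17.9% higher and 20.2% lower among all 307 genes tested, and nothing particular to pairs is read from them. The pairs that fell together were SOT18 with SOT16, AT4G27300 with BBX28, and PMP with GR1, which encodes a glutathione reductase. The calls of PMP and GR1 were lost on total counts (edgeR adjusted p = 0.27 and 0.34) and in 5 and 4 of the 6 fits that left out a library. EDA10 rose by 0.75 (edgeR adjusted p = 0.00019) beside the kinesin gene ARK2, which fell by 0.35 (edgeR adjusted p = 0.0074), or stood at -0.20 on total counts (edgeR adjusted p = 0.13). RPA1A, a subunit of the single-strand DNA-binding complex RPA, rose by 0.44 (edgeR adjusted p = 0.025) beside PSBX, a photosystem II subunit gene, which fell by 0.80 (edgeR adjusted p = 0.00033). The RPA1A call was lost without Col-0 replicate 1 or 2 or xrn3-8 replicate 1 (edgeR adjusted p = 0.087, 0.060 and 0.072).

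The authors also counted RNA-seq reads in a window flanking each gene, on a side that the sources used here do not state. Of the 362 genes, 348 have a window and 47 windows had enough counts to be tested. Of these, 22 (46.8%) were higher in xrn3-8 and 0 were lower by edgeR, where 49.3% and 1.61% of all 2925 windows tested were higher and lower. DESeq2 and the edgeR fit without a count filter also gave 0 lower, and at an unadjusted p under 0.05 edgeR and DESeq2 gave 0 lower too. The median log2 fold change was 1.09 over the 47 and 1.06 over all windows. The count of 22 became 35, 35 and 36 without Col-0 replicate 1, 2 or 3 and 34 without xrn3-8 replicate 2, fits in which 62 to 82 windows of the list were tested.

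Window reads of the list amounted to 2.24, 2.43 and 2.30 per 1000 gene reads in Col-0 and to 6.19, 5.78 and 7.38 in xrn3-8. Over all genes with a window Col-0 had 4.09, 4.23 and 4.37 and xrn3-8 had 8.16, 7.89 and 9.13. The list lay below all genes in each library, and in both sets every xrn3-8 library was above every Col-0 library.

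**Figure D5:**
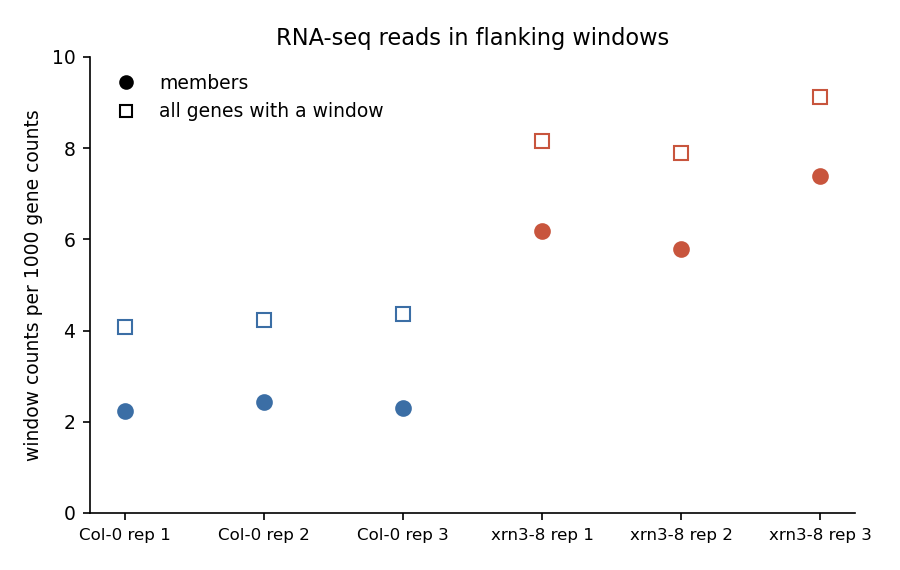
RNA-seq counts in flanking windows per 1000 counts in genes, in each of the 6 RNA-seq libraries, for the genes of the list (filled circles) and all genes with a window (open squares). For the list the values lie between 2.24 and 2.43 in Col-0 and between 5.78 and 7.38 in xrn3-8.

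The window of AT3G52800 held 0 Col-0 counts and 41, 25 and 104 xrn3-8 counts, at least 48.0-fold more, while the gene itself fell by 0.46 in RNA-seq (edgeR adjusted p = 0.015; 0.090 on total counts, 0.061 without Col-0 replicate 3 and 0.055 without xrn3-8 replicate 3). That of RS27A, a ribosomal protein gene, held 0 Col-0 counts and 15, 18 and 17 xrn3-8 counts, at least 14.1-fold more. The window of AT1G13350 held 1 Col-0 count and 125 xrn3-8 counts, a ratio of 106 (95% interval 18.7 to 4219), and here the gene was higher as well. The window of GSTU5 held 1 Col-0 count and 102 xrn3-8 counts, a ratio of 86.5 (15.2 to 3449), beside a gene that fell. The window of CFK2 (AT5G42360) held 1 and 94 counts, a ratio of 79.7 (14.0 to 3181). Those of AT1G34220, PAP26 and AT3G19120 held 2, 3 and 3 Col-0 counts against 50, 68 and 61 xrn3-8 counts. The window of the DnaJ gene AT3G13310 rose by a log2 fold change of 4.11 (SE 0.61, edgeR adjusted p = 2.3e-05), and that of AT1G72390, a flowering regulator named PHL, by 2.36 (SE 0.56, edgeR adjusted p = 0.0018). Of the 22 genes with a higher window, 6 were higher and 8 lower themselves, and 8 were not called. Over all 307 genes of the list tested, 17.9% were higher and 20.2% lower, and nothing is read from the difference. On total counts the lower gene calls of AT1G34220 and PAP26 were lost (edgeR adjusted p = 0.43 and 0.66). They were also lost in 5 and 6 of the 6 fits that left out a library, and the higher gene call of AT1G72390 was lost in 5.

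A neighbour's window was called higher for 43 of the 362 genes (11.9%), against 7.57% of all nuclear genes and 6.10% of those with at least 50 small RNA counts. Among genes tested by RNA-seq the shares were 12.4% and 8.98%. By DESeq2, which called more windows, they were 28.7% of the list and 17.6% of all nuclear genes. A neighbouring gene was itself higher for 21.5% of the list and for 16.7% of all nuclear genes, or for 23.1% and 20.6% among genes tested by RNA-seq. SOT16, for example, lies beside SOT18, whose window held 15, 12 and 8 Col-0 counts and 31, 36 and 42 xrn3-8 counts (log2 fold change 1.40, SE 0.39, edgeR adjusted p = 0.0057). No test was made of these shares.

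None of 20 genes that make or use small RNAs was on the list. The rule needs at least 50 summed small RNA counts, and most of the 20 lay below that, DCL2 and AGO4 far below. The list took 3.81% of the 9502 nuclear genes with enough counts, so nothing is read from this absence. All 20 were tested in RNA-seq, 8 were higher and 1 was lower, where 16.0% and 17.3% of all genes tested were, and the median log2 fold change was 0.22 against 0.01 over all genes. AGO1, the main Argonaute of the microRNA pathway, rose by 0.45 (SE 0.07, edgeR adjusted p = 0.00094). AGO2 rose by 0.58, the Dicer-like genes DCL2 and DCL3 by 0.53 and 0.35 (a DCL3 call lost without Col-0 replicate 1 or 3 or xrn3-8 replicate 2 or 3, edgeR adjusted p = 0.051 to 0.11), and RDR2, an RNA-dependent RNA polymerase gene, by 0.60. HST, an exportin gene, rose by 0.45, the helicase gene SDE3 by 0.42 and NRPE1, the largest subunit of RNA polymerase V, by 0.46. RDR6, which copies aberrant RNAs, was at 0.13 (edgeR adjusted p = 0.32) and its partner SGS3 at 0.22 (edgeR adjusted p = 0.17), or 0.37 on total counts (edgeR adjusted p = 0.032). RDR1 fell by 0.27 (edgeR adjusted p = 0.016), a call lost without Col-0 replicate 2 or xrn3-8 replicate 3 (edgeR adjusted p = 0.074 and 0.067), and stood at -0.11 on total counts (edgeR adjusted p = 0.29), where 12 of the 20 were higher and 0 lower by edgeR, and 16 were higher and 0 lower at an unadjusted p under 0.05.

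Of 15 RNA decay genes, 5 were higher and 1 was lower in RNA-seq, where 16.0% and 17.3% of all genes tested were. Their median log2 fold change was 0.10, and 2 of them, DCP1 and MTR4, were on the list. The list took 3.81% of the 9502 nuclear genes with at least 50 small RNA counts. Most of the 15 lay below that minimum, RRP4 far below it, so 2 of 15 and 3.81% are not like shares and nothing is read from them. The 5 higher became 1 without Col-0 replicate 1 or 2, 2 without xrn3-8 replicate 1, and 3 without Col-0 replicate 3 or xrn3-8 replicate 2. The decapping scaffold gene VCS rose by 0.73 (SE 0.09, edgeR adjusted p = 0.00023), RRP4, an exosome subunit gene, by 0.46, UPF1, a helicase of nonsense-mediated decay, by 0.31, SKI2, a cytoplasmic exosome helicase, by 0.30, and HEN2, a nuclear exosome helicase, by 0.25. RRP4, UPF1, SKI2 and HEN2 lost their calls in 4, 3, 3 and 5 of the 6 fits that left out a library, with edgeR adjusted p from 0.050 to 0.12, and VCS in 0. SAL1, whose phosphatase removes an inhibitor of XRN enzymes, fell by 0.65 (SE 0.08, edgeR adjusted p = 0.00013). On total counts 7 of the 15 were higher and 1 lower.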

How the data were processed

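RNA-seq and small RNA-seq were deposited as whole-number counts per feature and library. HISAT2, HTSeq, DESeq2 and bedtools for RNA-seq, Bowtie in place of HISAT2 for small RNA, and the TAIR10 build are named in the submitters' processing notes, with no versions. The deposited counts were not normalized. Rows that name no gene, 22.6% to 26.1% of RNA-seq and 74.6% to 77.1% of small RNA tallies, were left out. The small RNA tally of reads with several positions is 0.

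Small RNA CPM used nuclear gene totals without XRN3. Members and gene lists were chosen with earlier results of these data known. RNA-seq genes were tested in edgeR 4.0.16 (R 4.3.3) with the quasi-likelihood test, two-sided, filterByExpr with a minimum count of 10, TMM factors and Benjamini-Hochberg adjustment over all genes tested, threshold 0.05. Windows took the gene table's scaling. RNA-seq CPM used the scaled library sizes. The steps were also run on simulated data with the same dispersion for every feature. That is a simpler setting than these data, and no error rate for them is read from it. DESeq2 1.42.0 was an alternative. Intervals at the 95% level are exact (scipy 1.17.1), and they and the floor of 3 counts cover counting error only. Names and gene order came from a RefSeq table of TAIR10.1, which matched 362 of 362 genes, 124 of them with a name other than the locus. Its coordinates set the gene order and were not used otherwise, and it holds no strand. Nothing says that the replicates came from separate plants beyond the design text, which calls them biological. Tables of assembled loci were not used here. Genes named were the 12 with the most small RNA, the 10 with the largest ratio, the 12 highest and 12 lowest RNA-seq changes past the threshold, the 10 highest windows, the genes at the limits, genes with identical counts and list genes past the threshold. Genes in the role groups and in the pairs were chosen after their values were seen.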

Additional observations from a re-analysis of the deposited data

How the results depend on the processing

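The number of genes found by the small RNA rule followed its limits. It was 766 and 171 with count minimums of 20 and 100, and 798 and 163 with folds of 2 and 8, in place of 362. With 1 small RNA library left out it lay between 198 (without xrn3-8 replicate 3) and 367 (without Col-0 replicate 2), and part of the fall comes from the lower summed counts. XRN3 kept in the library total gave 324 genes and TMM-scaled library sizes gave 320, all among the 362 in both cases.

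RNA-seq calls on the list depended on the scaling. With total counts the median log2 fold change of the list was 0.18, with 107 genes higher and 35 lower. DESeq2 and the fit without a count filter gave 57 and 58 higher and 61 and 61 lower, and the fits that left out a library gave 37 to 57 higher and 45 to 56 lower. Among windows of the list, DESeq2 called 77 higher and the fit without a filter 68, from 300 windows tested in each, and the fits that left out a library called 25 to 36. A neighbour's window was higher for 28.7% of the list with DESeq2 and for 27.9% without a filter, against 17.6% and 17.9% of all nuclear genes.

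Replicate numbers are shared between the groups. Deviations of same-numbered RNA-seq libraries correlated weakly, at 0.06, 0.15 and 0.10, and each library correlated best with its own number. Differently numbered libraries correlated at -0.11 to 0.02. Deviations were taken from the mean of the 3 libraries of each group, so these correlations depend on each other. Nothing about pairing is read from them. What the shared numbers stand for was not tested, and the main fit has no term for them. With the replicate block, 58 genes of the list were higher and 63 lower (median 0.03), 20 windows were higher, and 10.5% of the list had a neighbour with a higher window.

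Of the 24 genes named for the largest RNA-seq changes, 20 kept their call in every fit run. The others were AT1G60680, AT5G32460, AT5G39350 and AT1G58215, and none of the 24 reversed. With 191 genes resting on fewer than 100 small RNA counts, a ratio near the 4-fold limit is not separable from it at this depth.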
